A study of Danio rerio with 12 samples.

Results

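The immunoglobulin segments and B cell genes of the zebrafish heart were described at 4 ages. They were taken as every gene whose biotype begins with IG_, together with genes whose symbol begins with a heavy chain (ighv, ighd, ighm, ighz) or numbered light chain (igl, igic) designation, and cd79a, cd79b, pax5 and POU2AF1. The rule used no measured value and found 85 of the 50640 genes in the tables. Of these, 78 are immunoglobulin segments and 4 are B cell genes. The other 3 met the rule without being immunoglobulin segments: the helicase gene ighmbp2, the T cell receptor delta constant gene trdc, and si:dkeyp-13d12.23, which lies beside a T cell receptor joining gene on chromosome 2. The heavy chain constant gene of IgM is not analysed here.

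Total RNA was sequenced from hearts of zebrafish (Danio rerio), kept in standard housing, at 6, 12, 24 and 36 months of age, with 3 libraries at each age and 12 in all, to follow natural ageing. The labels separate the groups by age alone and give no strain, sex or treatment. They do not say whether a library is 1 heart or a pool; the p-values here therefore reflect nothing beyond the spread between these libraries. Values are FPKM (fragments scaled to gene length and to a library size set by the authors), and FPKM times gene length gave whole reads.

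Antibodies are made by B cells and by the plasma cells that B cells become. A developing B cell joins variable, diversity and joining segments of the heavy chain, and variable and joining segments of a light chain, with the recombinase of Rag1 and Rag2. A mature B cell and its descendants therefore make an antibody from few of the many segments in the genome. The constant segment behind them sets the class, which in zebrafish is IgM, IgD or the teleost class IgZ. Cd79a and Cd79b are the signalling chains of the B cell receptor, Pax5 maintains B cell identity and is switched off in mammalian plasma cells, and Pou2af1 is a coactivator of transcription in mammalian B cells. In heart tissue, B cells are a minor part of the resident and circulating immune cells.

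The libraries held 7333060 to 11145869 reads in genes, and 1 read in a gene of 1 kilobase was worth 0.0878 to 0.136 FPKM. The heart label was checked on its markers: the natriuretic peptide gene nppa stood at 3120 to 7020 FPKM and the cardiac myosin light chain gene cmlc1 at 473 to 1490 FPKM. The ventricular myosin gene vmhc (0 to 0.905 FPKM), the troponin T gene tnnt2a (0 to 0.346 FPKM) and the troponin C gene tnnc1a (0 in every library) were at or near 0. Each of these 3 shares its strand with an overlapping locus that has no name, and those loci held 67.9 to 234 FPKM at tnnc1a, 2.21 to 5.38 at vmhc and 0 to 0.164 at tnnt2a. Such loci also overlap 57 of the 85 genes described here on the same strand, among them 55 of the 78 segments, so that reads in an overlap could be given to either gene or to neither. Replicate 1 of 6 months and replicate 3 of 12 months stood apart: over genes, log2 values correlated at 0.9015 and 0.912 with the other libraries of 6 months, which correlated with each other at 0.9528, and at 0.9311 and 0.9222 with those of 12 months, which correlated with each other at 0.9577. Results that rest on these 2 libraries are given with and without them, an alternative chosen after the data were seen.

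The heavy chain locus lies on chromosome 3 (33819738 to 33986378, GRCz11) and holds 51 of the segments, of which 40 are variable, 9 have pseudogene biotypes and 2 are the constant genes ighd and ighz. The 5 igl3v segments and the constant segment igic1s1 of a light chain locus lie on chromosome 24 (38306239 to 38318394), with a second copy of igl3v2 elsewhere on that chromosome. The 3 igl4v segments lie on chromosome 25 (36743154 to 36751522). A cluster of 16 segments with pseudogene biotypes lies on chromosome 19 (23458163 to 23544978). The light chain constant gene igl1c3 lies on chromosome 3 (58773999 to 58775870), outside the heavy chain locus.

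Most of the segments were sparse or silent at this depth. Of the 85 genes, 31 had 0 reads in all 12 libraries, 43 had at least 3 reads over the 12 libraries, and 8 reached the mean of 1 FPKM needed for the test across genes. The 78 segments together held 1057 reads, with 365 on heavy chain variable segments, 180 on igl3v, 61 on igl4v, 53 on ighd and ighz, 55 on the light chain constant segments, 332 on the chromosome 19 cluster and 11 on heavy chain pseudogenes. The 4 B cell genes held 882 reads. In bulk samples, fewer cells of a type and less RNA per cell cannot be told apart, which applies to every level below. Variable segments of 1 family resemble each other, and how the authors' counting treated reads that match several of them is not given in the sources used here, so the split of reads between related segments is uncertain.

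**Figure D1:**
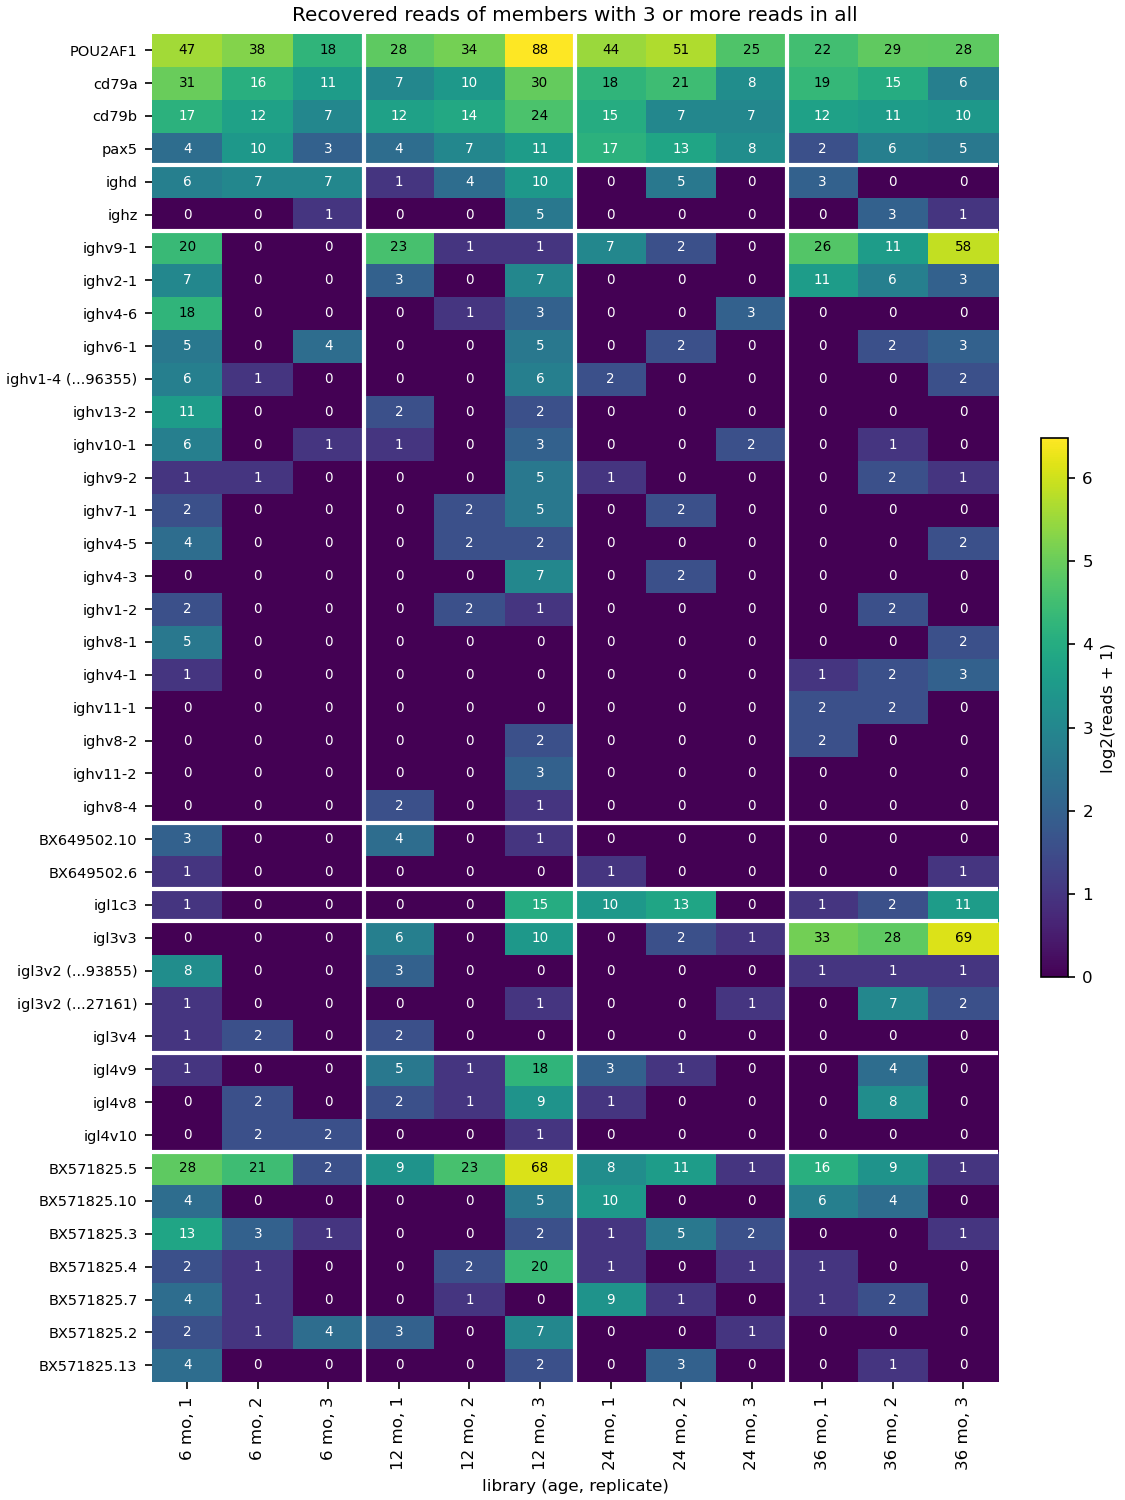
Recovered reads (number, with colour as log2 of reads + 1) of the 41 immunoglobulin segments and B cell genes with at least 3 reads in all, by library (age in months and replicate), with white lines between gene groups and ages. The rows of igl3v3 and ighv9-1 hold reads in all 3 libraries of 36 months, and the 4 B cell genes in every library.

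Among the light chain variable segments, igl3v3 (ENSDARG00000078763, chromosome 24, 38311932 to 38312516, plus strand) had 0 reads in all 3 libraries of 6 months. It had 6, 0 and 10 reads at 12 months, 0, 2 and 1 reads at 24 months, and 33, 28 and 69 reads at 36 months. Every library of 36 months lay above all 9 younger libraries, and the libraries of 6, 12 and 24 months overlapped.

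In FPKM, igl3v3 stood at 0 in every library of 6 months, at 1.13 ± 1.02 (SD, n = 3) at 12 months, at 0.234 ± 0.21 at 24 months, and at 10.2, 7.08 and 18.1 in the libraries of 36 months (mean 11.8 ± 5.66). Its level over the 3 libraries of 36 months was 49.4-fold that which 3 reads over the 3 libraries of 6 months would have given (0.239 FPKM). That ratio allows for counting error at 6 months only, and not for counting error or spread at 36 months. Genes were called at an adjusted p (Benjamini-Hochberg over all genes tested) under 0.05. In limma on log2(FPKM + 1), igl3v3 rose by 3.58 ± 0.41 (SE) from 6 to 36 months (adjusted p = 0.00167), by 3.30 ± 0.41 from 24 to 36 months (adjusted p = 0.00492) and by 1.21 ± 0.15 per 12 months along a linear trend (adjusted p = 0.00185), and the F test across the 4 ages also called it (adjusted p = 0.00465). Without the 2 libraries that stood apart, igl3v3 rose by 3.58 from 6 to 36 months (limma, adjusted p = 0.00368). The differences of 0.95 ± 0.41 from 6 to 12 months and of -0.66 ± 0.41 from 12 to 24 months did not pass (adjusted p = 0.495 for both in limma). The trend therefore rests on the 36-month libraries: the mean over the 9 younger libraries was 0.454 FPKM, under the level needed for testing, so igl3v3 entered the test through the age where it was high. The 3 loci without a name that overlap it on its own strand held 0 to 1 reads in a library, and a further locus on the opposite strand, which covers igic1s1 and igl3v5, held 8, 1 and 1 reads at 6 months, 2, 0 and 7 at 12 months, 2, 4 and 1 at 24 months, and 6, 5 and 34 at 36 months.

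The other light chain variable segments did not share this pattern in their reads. igl4v9 had 1, 0 and 0 reads at 6 months, 5, 1 and 18 at 12 months, 3, 1 and 0 at 24 months, and 0, 4 and 0 at 36 months. igl4v8 had 9 of its 23 reads in replicate 3 of 12 months and 8 in replicate 2 of 36 months. The copy of igl3v2 within the locus on chromosome 24 (ENSDARG00000093855) had 8 of its 14 reads in replicate 1 of 6 months, and the second copy (ENSDARG00000027161) had 7 of its 12 in replicate 2 of 36 months. igl3v4 and igl4v10 had 5 reads each in all. None of these reached the level needed for the test.

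Among the heavy chain variable segments, ighv9-1 (ENSDARG00000096430, chromosome 3, 33939658 to 33940129, minus strand) had the most reads, 149 in all. It had 20, 0 and 0 reads at 6 months, 23, 1 and 1 at 12 months, 7, 2 and 0 at 24 months, and 26, 11 and 58 at 36 months. The libraries of 36 months lay above all 3 of 24 months, and overlapped those of 6 and 12 months through replicate 1 of each of those ages.

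The level of ighv9-1 was 1.83 ± 3.17 FPKM (SD, n = 3) at 6 months, 2.47 ± 3.77 at 12 months, 0.861 ± 1.07 at 24 months and 11.0 ± 7.93 at 36 months. Its log2 difference of FPKM + 1 was 2.44 ± 0.90 (SE) for 36 against 6 months (limma, unadjusted p = 0.0205, adjusted p = 0.119) and 2.60 ± 0.90 for 36 against 24 months (adjusted p = 0.185), so it did not pass in either. Without replicate 1 of 6 months, the difference from 6 months was 3.34 and passed (limma, adjusted p = 0.0312), as it did without both libraries that stood apart (3.34, adjusted p = 0.0286). ighv9-1 lies within the span of the long gene model of ighv1-4 (ENSDARG00000096355, 17 reads) and of a locus without a name that covers most of the heavy chain locus and held 0 to 4 reads in a library.

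The other heavy chain variable segments had fewer reads, at most 37 in all 12 libraries. ighv2-1 had 7, 0 and 0 reads at 6 months, 3, 0 and 7 at 12 months, 0 in every library of 24 months, and 11, 6 and 3 at 36 months, a mean of 2.04 ± 1.45 FPKM at 36 months and 0.541 ± 0.937 at 6 months. ighv4-6 and ighv13-2 were concentrated in replicate 1 of 6 months, with 18 of 25 and 11 of 15 reads, and both were at 0 in all 3 libraries of 36 months. ighv6-1 had 21 reads spread over 6 libraries and all 4 ages. Of the 40 variable segments, 25 had a read in any library and 18 had at least 3.

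**Figure D2:**
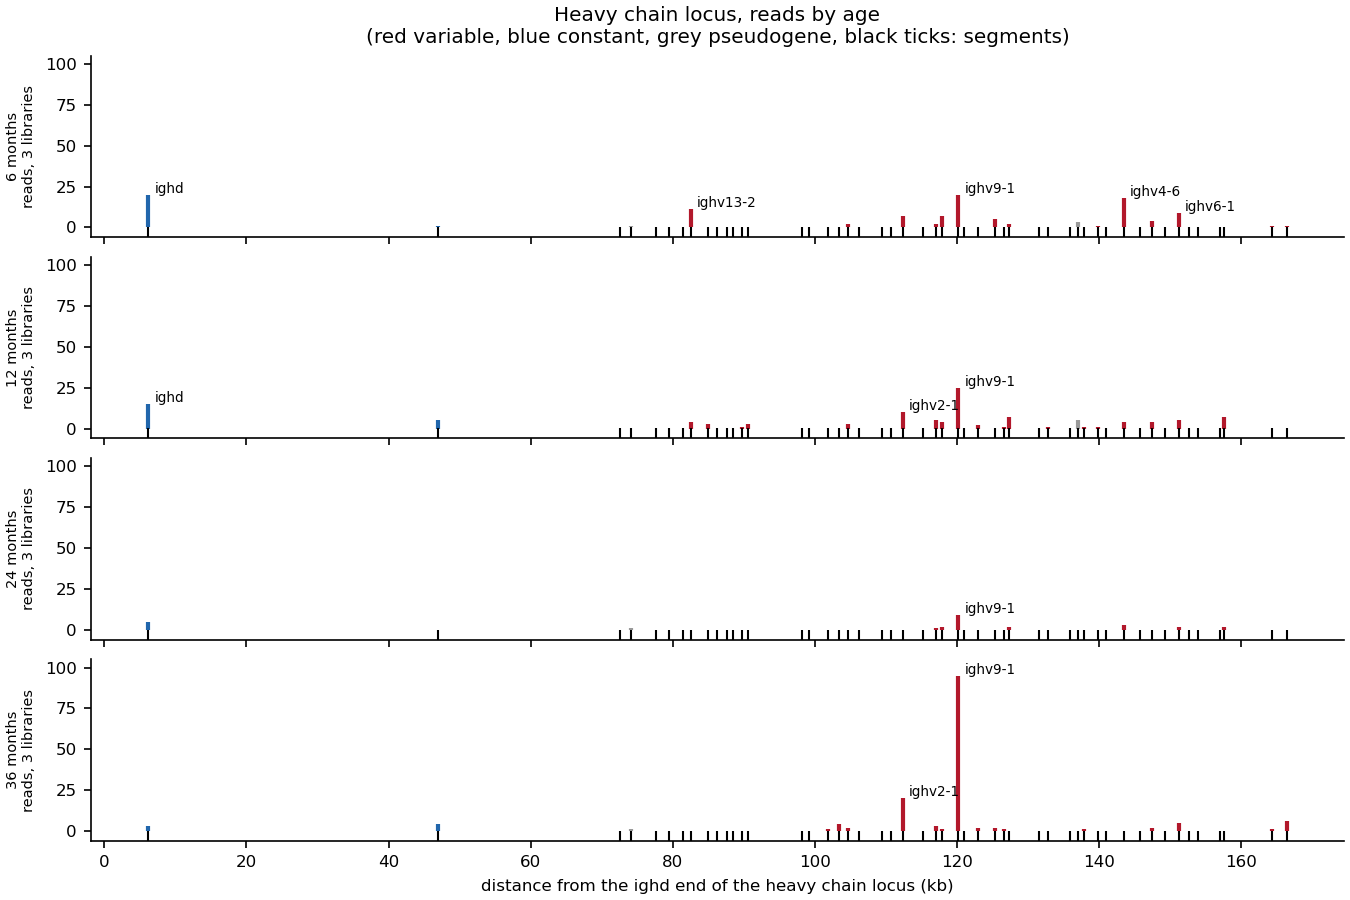
Reads of heavy chain segments summed over the 3 libraries of each age (vertical axis) against the distance in kb from the ighd end of the locus (horizontal axis). Red is for variable, blue for constant and grey for pseudogene segments, with ticks for every segment drawn. The long gene model of ighv1-4 (ENSDARG00000096355, 17 reads) was left out. ighv9-1 holds 95 reads at 36 months and 20, 25 and 9 at 6, 12 and 24 months.

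The share of variable reads on a single segment was described next, with exact binomial intervals that cover counting error only. At 36 months, ighv9-1 held 61.9%, 37.9% and 75.3% of the heavy chain variable reads of the 3 libraries, or 95 of 148 reads together (64.2%, 95% interval 55.9 to 71.9). Over the 3 libraries of each younger age it held 20.6% at 6 months, 25.8% at 12 months and 39.1% of only 23 reads at 24 months, the largest share of any segment, but replicate 1 decided each of these. Without replicate 1, ighv9-1 held 0 of 8 reads at 6 months, 2 of 66 at 12 months and 2 of 13 at 24 months, and it no longer led, whereas at 36 months it led whichever library was left out (52.1% to 70.6%). In replicate 1 of 12 months it held 23 of 31 reads (74.2%, 55.4 to 88.1), as large a share as at 36 months. Among light chain variable reads, igl3v3 held 97.1%, 58.3% and 95.8% at 36 months, or 130 of 154 reads together (84.4%, 77.7 to 89.8). The leading light chain segment was igl3v2 (ENSDARG00000093855) at 6 months, with 8 of 19 reads, and igl4v9 at 12 and 24 months, with 24 of 59 and 4 of 9 reads. Single libraries decided these: replicate 1 of 6 months held all 8, replicate 3 of 12 months 18 of the 24, and replicate 1 of 24 months 3 of the 4. igl3v3 led in replicate 1 of 12 months (6 of 18 reads) and in replicate 2 of 24 months (2 of 3). The remaining younger libraries were tied or led by another segment.

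The number of heavy chain variable segments seen depends on the reads, so libraries with at least 29 such reads were compared at 29 reads. This depth is the read count of replicate 2 of 36 months, the lowest of that age, so it kept every library of 36 months. The number expected at that depth was 10.4 segments in replicate 1 of 6 months, 4.93 and 14.8 in replicates 1 and 3 of 12 months, and 4.51, 9.0 and 6.64 at 36 months. Of the libraries of 36 months, 2 lay within the range of the younger ones and replicate 1 lay below it, by less than 1 segment, and the other 6 libraries had too few reads for this comparison. The upper values of that range, 10.4 and 14.8, are those of the 2 libraries that stood apart. Without them, replicate 1 of 12 months (4.93) is the only younger library left, which gives no range to compare with.

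The constant genes carried few reads. ighd, the constant gene of IgD, had 6, 7 and 7 reads at 6 months, 1, 4 and 10 at 12 months, 0, 5 and 0 at 24 months, and 3, 0 and 0 at 36 months. Its level at 36 months (0.0257 ± 0.0445 FPKM, SD, n = 3) was below that at 6 months (0.135 ± 0.0259 FPKM) without overlap between the libraries. The share of all genes that lay lower in this way is not given here, so the lack of overlap is not set against a background. ighd was too low for the main test. In limma voom on the recovered reads, the difference of -2.73 ± 1.01 (log2, SE) did not pass (adjusted p = 0.164). ighz, the constant gene of IgZ, had 10 reads in all, 5 of them in replicate 3 of 12 months and 4 at 36 months.

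The light chain constant gene igl1c3 had 1, 0 and 0 reads at 6 months, 0, 0 and 15 at 12 months, 10, 13 and 0 at 24 months, and 1, 2 and 11 at 36 months. The libraries of 36 months lay above those of 6 months, but the nearest 2 libraries had 1 read each (0.407 against 0.285 FPKM), and its log2 difference of 1.04 ± 0.74 (SE, FPKM + 1) did not pass (limma, adjusted p = 0.402). A locus without a name that starts at the same base on the same strand held more reads than igl1c3 in every library, 13 to 99, with 99 in replicate 3 of 12 months and 42, 24 and 70 at 36 months. igic1s1, the constant segment beside igl3v3, had 2 reads in all.

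The cluster on chromosome 19 was led by BX571825.5, a constant-region pseudogene by its biotype, which was singled out after its values were seen. It had 28, 21 and 2 reads at 6 months, 9, 23 and 68 at 12 months, 8, 11 and 1 at 24 months, and 16, 9 and 1 at 36 months. The lowest library of 6, 24 and 36 months was replicate 3 each time, and the ages overlapped. Its log2 difference for 36 against 6 months was -0.41 ± 0.61 (SE, FPKM + 1; limma, adjusted p = 0.71). The whole cluster was at 3.3 ± 2.71 RPM (reads per 1000000 reads in genes, SD, n = 3) at 6 months, 4.43 ± 4.31 at 12 months, 1.84 ± 1.08 at 24 months and 1.84 ± 1.59 at 36 months. Without the 2 libraries that stood apart, the means of 6 and 12 months were 1.9 and 1.98 RPM, near those of the later ages.

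The genes of the B cell receptor and of B cell identity had reads in all 12 libraries. cd79a had 31, 16 and 11 reads at 6 months, 7, 10 and 30 at 12 months, 18, 21 and 8 at 24 months, and 19, 15 and 6 at 36 months, which overlap at every age. Its level was 2.92 ± 1.32 FPKM (SD, n = 3) at 6 months and 2.40 ± 1.38 at 36 months, with a log2 difference of -0.24 ± 0.39 (SE, FPKM + 1; limma, adjusted p = 0.743). cd79b had 17, 12 and 7 reads at 6 months, 12, 14 and 24 at 12 months, 15, 7 and 7 at 24 months, and 12, 11 and 10 at 36 months. Its level was 1.5 ± 0.56 FPKM at 6 months and 1.59 ± 0.306 at 36 months, with a log2 difference of 0.07 ± 0.25 (limma, adjusted p = 0.884). The standard errors of both genes leave room for changes of the size of those errors, and somewhat more, in either direction.

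pax5 and POU2AF1 lay below the mean of 1 FPKM and were tested only in the fits that keep low genes. pax5 had 4, 10 and 3 reads at 6 months, 4, 7 and 11 at 12 months, 17, 13 and 8 at 24 months, and 2, 6 and 5 at 36 months. All 3 libraries of 24 months lay above those of 36 months, at 0.763 ± 0.216 against 0.295 ± 0.121 FPKM (SD, n = 3). The share of all genes that did so is not given here, so this is not set against a background. POU2AF1 had 47, 38 and 18 reads at 6 months, 28, 34 and 88 at 12 months, 44, 51 and 25 at 24 months, and 22, 29 and 28 at 36 months. Its level was 0.824 ± 0.347 FPKM at 6 months and 0.714 ± 0.0314 at 36 months, within the range of the younger libraries. Neither passed in any comparison of limma voom or of limma without a filter.

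**Figure D3:**
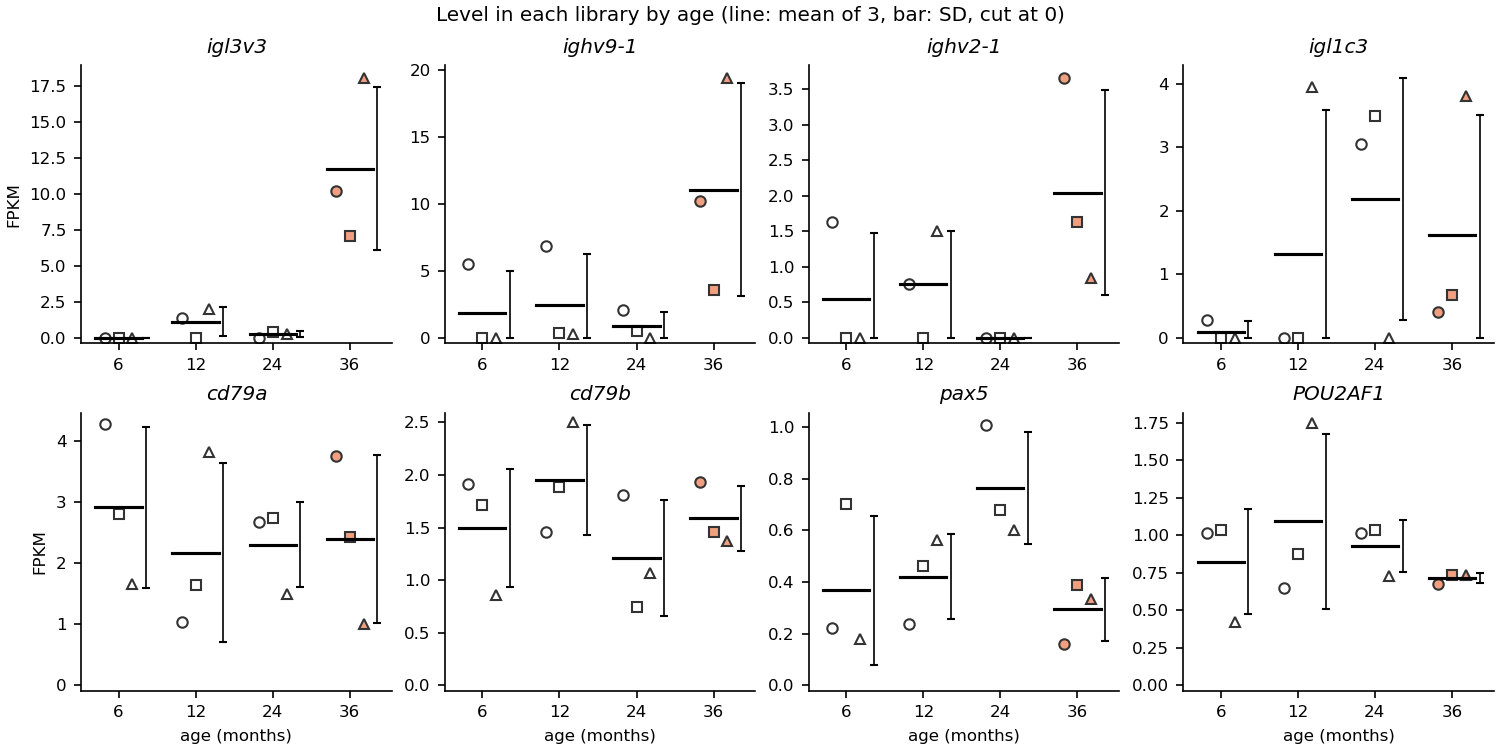
Level in FPKM (vertical axis, own scale in each panel) by age in months for 4 segments (top) and 4 B cell genes (bottom), with circles, squares and triangles for replicates 1, 2 and 3, filled at 36 months, lines for means and bars for the SD of 3 libraries, drawn down to 0 at most. igl3v3 is at 7.08 to 18.1 FPKM at 36 months and at most at 1.99 before, while cd79a and cd79b overlap across the ages.

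Summed over the 78 segments, the level was 18.1, 4.77 and 2.27 RPM at 6 months, 6.65, 4.24 and 20.8 at 12 months, 5.33, 4.84 and 1.62 at 24 months, and 14.3, 11.5 and 18.9 at 36 months. Replicate 1 of 6 months and replicate 3 of 12 months were thus as high as the libraries of 36 months, and the means were 8.38 ± 8.5 (SD, n = 3), 10.6 ± 8.96, 3.93 ± 2.01 and 14.9 ± 3.73. These are the 2 libraries that stood apart across all genes, and without them the means of 6 and 12 months were 3.52 and 5.45 RPM (2 libraries each), with every younger library below those of 36 months. The make-up of the high libraries differed: igl3v3 and ighv9-1 together gave 8.05, 4.58 and 14.6 RPM at 36 months, 2.14 in replicate 1 of 6 months and 0.987 in replicate 3 of 12 months. These 2 segments were chosen for this after their values were seen, so leaving them out lowers 36 months by that choice. The other 76 stood at 6.27, 6.93 and 4.27 RPM at 36 months, between the means of 3.53 ± 1.77 at 24 months and 9.23 ± 9.18 at 12 months. They stood at 15.9 in replicate 1 of 6 months and 19.8 in replicate 3 of 12 months. Without those 2 libraries, the 76 stood at 3.52 RPM at 6 months and 3.93 at 12 months, against 5.82 at 36 months, and the libraries of 36 months overlapped those of 6 and 24 months. The number of segments with reads was 30 and 35 in those 2 younger libraries and 14, 20 and 19 at 36 months. It was 12 and 9 in the other libraries of 6 months, 14 and 11 in those of 12 months, and 13, 13 and 8 at 24 months. These counts depend on the segment reads of a library and were not matched for them.

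The 4 B cell genes stood at 10.6, 8.44 and 3.85 RPM at 6 months, 5.14, 6.88 and 13.7 at 12 months, 9.11, 8.91 and 6.49 at 24 months, and 7.5, 7.17 and 5.65 at 36 months. The highest values were in the same 2 younger libraries, and the libraries of 36 months lay inside the ranges of 6 and of 12 months and 1 of the 3 lay below that of 24 months. Without those 2 libraries the means were 6.14 RPM at 6 months and 6.01 at 12 months, beside 6.77 at 36 months. Segment reads per B cell gene read were 1.91, 1.61 and 3.35 at 36 months, 1.71, 0.566 and 0.59 at 6 months, 1.29, 0.615 and 1.52 at 12 months, and 0.585, 0.543 and 0.25 at 24 months. Leaving out igl3v3 and ighv9-1, which were chosen for this after their values were seen, the ratios at 36 months were 0.836, 0.967 and 0.755, inside the range of 0.229 to 1.51 over the younger libraries. The top of that range came from the same 2 younger libraries, replicate 1 of 6 months (1.51) and replicate 3 of 12 months (1.44). Without them the younger libraries ran from 0.229 to 0.725, below every library of 36 months.

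**Figure D4:**
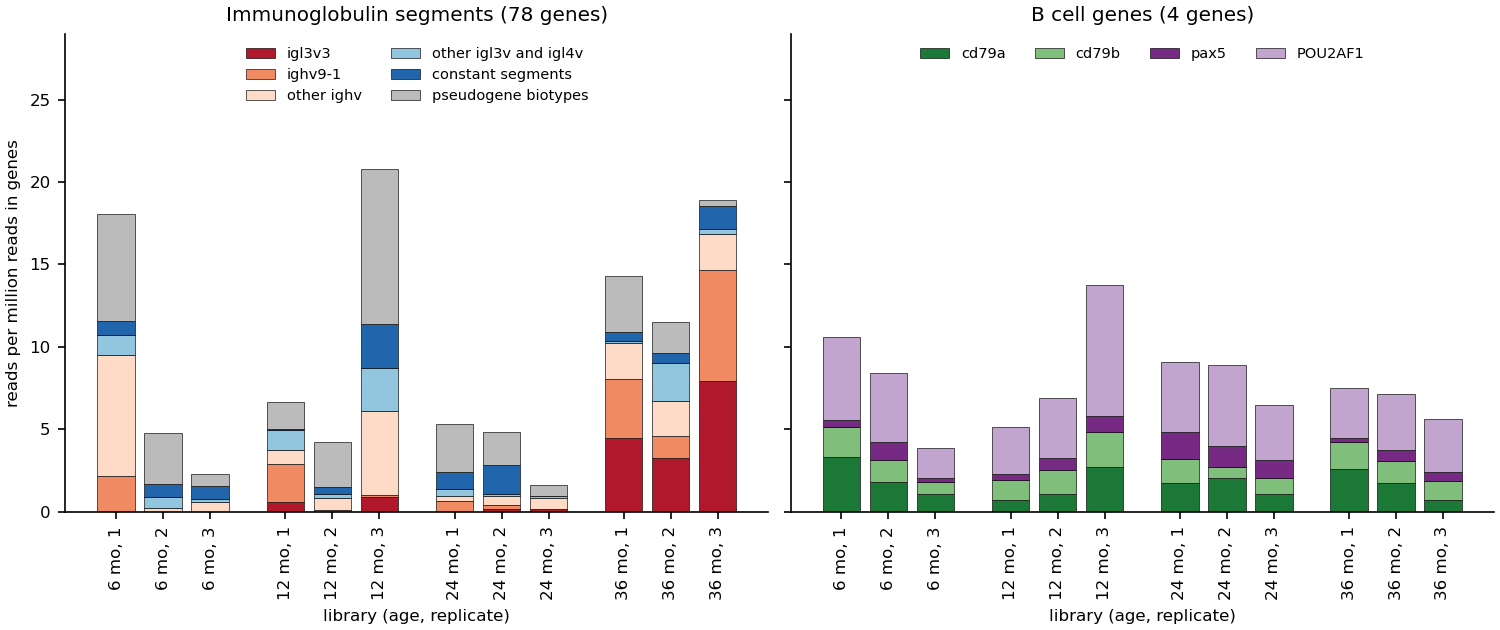
Reads per 1000000 reads in genes (RPM), stacked by gene, for the 78 immunoglobulin segments (left) and the 4 B cell genes (right) in each library, on a shared vertical axis. Replicate 1 of 6 months (18.1) and replicate 3 of 12 months (20.8) reach the segment total of 36 months (11.5 to 18.9) with little igl3v3 and ighv9-1.

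Across the 8 genes that entered the test, 1 was called in the F test across the ages, where 5.28% of the 16223 genes tested were called. For the linear trend 1 was called, as a rise (10.4% of all genes called, 5.21% as rises), for 36 against 6 months 1 was called, as a rise (8.25% of all genes, 3.95% as rises), and for 36 against 24 months 1 was called, as a rise (1.12% of all genes, 0.481% as rises). The called gene was igl3v3 each time. For 12 against 6 months limma called 0 of the 8 (0.0185% of all genes), with 1 at an unadjusted p under 0.05, and for 24 against 12 months 0 (0.715% of all genes), with 0 at an unadjusted p under 0.05, and limma voom and limma without a filter also called 0 in both. The median log2 difference of the 8 genes for 36 against 6 months was 0.125, beside 0 over all genes tested, and since the filter favours genes with a high age it describes these 8 only. Without the 2 libraries that stood apart, the F test called 1 (13.3% of all genes), the trend 2 (17.7%), 36 against 6 months 2, both as rises (14.1% of all genes, 6.54% as rises), and 36 against 24 months 1 (3.54%). With these counts, 1 in 8 is too coarse a share to set against the background.

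Groups that do not overlap were counted as well. For 36 against 6 months, igl3v3 and igl1c3 lay higher in all 3 libraries, where 13.4% of all genes tested did, and 0 of the 8 lay lower. For 36 against 24 months these were igl3v3 and ighv9-1 (12.2% of all genes). For 36 months against all 9 younger libraries it was igl3v3 (3.43% of all genes). This gene is among those tested only through its libraries of 36 months, with a mean of 0.454 FPKM over the 9 younger libraries. Its place in these counts is therefore partly set by the filter and adds no support. The comparisons of 36 months with 6 and with 24 months share the libraries of 36 months. Without the filter, 3 of the 85 genes lay higher and 2 lower for 36 against 6 months, and 5 lay higher and 1 lower for 36 against 24 months. The shares of all genes for these unfiltered counts, and for genes that lay lower, are not given here, so they are not set against a background.

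**Figure D5:**
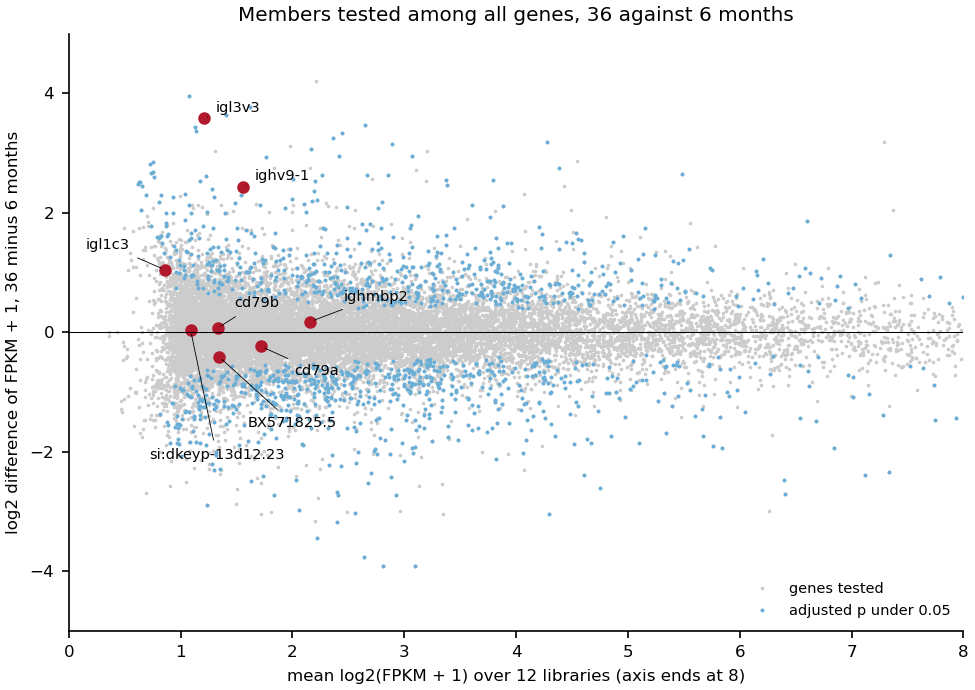
Log2 difference of FPKM + 1 between 36 and 6 months (vertical axis) against the mean log2(FPKM + 1) over the 12 libraries (horizontal axis, ending at 8) for genes tested in limma (grey), with those of adjusted p under 0.05 in blue and the 8 genes described here in red. igl3v3 (3.58) is the 1 red point past the threshold, ighv9-1 lies at 2.44, and cd79a and cd79b lie near 0; both axes end short of the most extreme genes.

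Fits that keep more of the low genes reached more of the set. Limma voom on the recovered reads tested 31 of the 85 and called igl3v3 alone in the F test (1.79% of all genes called), the trend (3.81%), 36 against 6 months (2.53%; log2 difference 6.52 ± 0.97, SE, adjusted p = 0.00786) and 36 against 24 months (0.395%; adjusted p = 0.034). Limma without a filter tested 54 and called igl3v3 and ighv4-1 in the same 4 comparisons, with 1.1%, 2.93%, 2.26% and 0.444% of all genes called. ighv4-1, a heavy chain variable segment, had 1, 2 and 3 reads in the libraries of 36 months, 1 in replicate 1 of 6 months and 0 in the other 8, so that its call (36 against 6 months, log2 difference 0.60 ± 0.13, SE, adjusted p = 0.0402) rests on 7 reads.

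The 3 genes that are not immunoglobulin segments were described for completeness. ighmbp2 stood at 3.16 ± 0.579 FPKM (SD, n = 3) at 6 months and 3.72 ± 0.75 at 36 months (log2 difference of FPKM + 1, 0.18 ± 0.16, SE; limma, adjusted p = 0.498). si:dkeyp-13d12.23 stood at 1.19 ± 0.09 and 1.29 ± 0.537 FPKM (log2 difference 0.03 ± 0.24; limma, adjusted p = 0.946). trdc had 0 reads in every library, which allows up to 0.275 FPKM over the 3 libraries of 36 months for 3 reads.

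A broad list of B cell signalling genes was counted next, for 36 against 6 months. It also holds cd40, cxcr5 and tnfsf13b, so it is not limited to genes downstream of the B cell receptor. Of 24 matched genes of B cell signalling, 17 were tested. In limma 0 of these were called, beside 8.25% of all genes, with 1 at an unadjusted p under 0.05. In limma voom 0 of 19 were called, beside 2.53% of all genes. With so few genes tested, these counts are too coarse to set against those shares. The smallest p-values were those of prkcbb, a protein kinase C beta gene (log2 difference 0.77 ± 0.27, SE, adjusted p = 0.107), and malt1, which links antigen receptors to NF-kB (0.42 ± 0.21, adjusted p = 0.226). The median of the 17 was 0.335, beside 0 over all genes tested. Without the 2 libraries that stood apart, 4 of the 17 were called as higher (14.1% of all genes called, 6.54% as higher). These were malt1, ptpn6, swap70b and an ID matched to lyn that the tables name tgs1. The summed level of the list was 313 to 370 FPKM at 6 months and 304 to 353 at 36 months.

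Of the transcription factors and recombination genes of B cells, 7 of 20 were tested and 1 was called, beside 8.25% of all genes. It was foxo1a, a forkhead factor that is also expressed outside B cells. It rose from 8.99 ± 3.3 FPKM (SD, n = 3) at 6 months to 64.7 ± 11.2 at 36 months (log2 difference 2.75 ± 0.25, SE; limma, adjusted p = 0.000655). ikzf1, a factor of all lymphocytes, stood at 8.15 ± 1.43 and 12.6 ± 3.07 FPKM (0.55 ± 0.23, adjusted p = 0.161). The median of the 7 was 0.47. Without the 2 libraries that stood apart, foxo1a and irf8 were called, both as higher (14.1% of all genes called, 6.54% as higher).

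Of the genes of plasma cells and antibody secretion, 7 of 13 were tested for 36 against 6 months. In limma 0 were called, beside 8.25% of all genes, with 1 at an unadjusted p under 0.05. In limma voom 0 of 10 were called, beside 2.53% of all genes. With so few genes tested, these counts are too coarse to set against those shares. prdm1b, a paralogue of the factor that drives the plasma cell programme in mammals, stood at 5.41, 10.4 and 5.14 FPKM at 6 months and at 15.5, 11.3 and 7.43 at 36 months (log2 difference 0.64 ± 0.32, SE, adjusted p = 0.232). prdm1b passed the F test across the 4 ages (limma, adjusted p = 0.0415), where 5.28% of all genes were called. Its means were lower at 12 months (2.92 ± 1.08 FPKM, SD, n = 3) and at 24 months (4.19 ± 1.08). The call was lost in 10 of the 12 fits that leave out a library (adjusted p up to 0.11). ell2, an elongation factor used in plasma cells, stood at 16.6 ± 0.888 and 21.0 ± 0.556 FPKM (0.32 ± 0.13, adjusted p = 0.151). The median of the 7 was 0.152, and the summed level of the list, which is dominated by genes of secretion that other cells use too, was 447 to 469 FPKM at 6 months and 380 to 531 at 36 months.

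Markers of other immune cells were measured beside the segments. Of 18 T cell marker genes, 7 were tested and 1 was called for 36 against 6 months, beside 8.25% of all genes, and the median log2 difference of the 7 was 1.07, the highest of the 9 lists. The called gene was themis, a gene of T cell selection, which rose by 2.13 ± 0.41 (log2, SE; limma, adjusted p = 0.0146). Leaving out replicate 1 or replicate 2 of 36 months took that call past the threshold, to an adjusted p of as much as 0.0533. The summed level of the T cell list was 24.5, 10.7 and 10.6 FPKM at 6 months, 10.8, 7.91 and 33.8 at 12 months, 21.9, 35.2 and 15.3 at 24 months, and 49.6, 49.5 and 20.1 at 36 months, and 2 of the 18 genes, cd4-2.2 and il2rga, were at 0 in every library. The highest library of the T cell list at 36 months was replicate 1, while igl3v3 and ighv9-1 were highest in replicate 3, and the part of the T cell markers in the result was not tested.

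Of 21 macrophage and granulocyte markers, 13 were tested and 1 was called, beside 8.25% of all genes, and the median of the 13 was 0.876. The called gene was the metalloproteinase gene mmp9 (log2 difference 2.10 ± 0.58, SE, limma, adjusted p = 0.0493). Its call was lost in 9 of the 12 fits that leave out a library (adjusted p up to 0.149). Without the 2 libraries that stood apart, 9 of these 13 were called as higher and 2 of the 7 T cell markers, il7r and themis (6.54% of all genes called as higher), with medians of 1.4 and 1.35. Their summed level was 201 to 697 FPKM at 6 months, 454 to 582 at 12 months, 758 to 1820 at 24 months and 431 to 1280 at 36 months, with 3 of the 21 at 0 throughout, and their part in the segment levels was not tested. The lists of erythroid, hepatocyte, thrombocyte and heart muscle markers had 0 calls for 36 against 6 months in limma (8.25% of all genes) and in limma voom (2.53%). In limma, 1, 0, 0 and 1 of their genes had an unadjusted p under 0.05. Without the 2 libraries that stood apart, cmlc1 was called as lower (14.1% of all genes called in either direction). The hepatocyte list was at 264 FPKM in replicate 1 of 6 months, against 6.21 and 15.2 in the other libraries of that age, and at 34.2 in replicate 3 of 12 months, against 13.6 and 911 in the others, and its part in the segment reads of those libraries was not tested.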

How the data were processed

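Heart RNA of 12 zebrafish libraries was read as FPKM per gene, as deposited by the authors in 4 tables, 1 per age. Per the submitters' processing notes, CASAVA 1.8 and HISAT2 2.0.5 were used with the GRCz11 build. The counter, its use of strand and the annotation release are not given in the sources used here. FPKM times gene length gave whole reads for 100% of values above 0 within 0.01 read, and depth is given as reads in genes.

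The members and gene lists were chosen with earlier results of these data known. The 16223 genes whose FPKM averaged 1 or more were tested on log2(FPKM + 1), two-sided, with limma 3.58.1 in R 4.3.3: 4 age means over 12 libraries, 8 residual degrees of freedom, eBayes with trend, Benjamini-Hochberg over all genes tested, threshold 0.05. A log2 difference on this scale understates the change of low genes. Linear trends are given per 12 months. The procedure was checked on simulated data with known changes, but the outcome is not reported here and is not used as support. Limma voom on the recovered reads, with median-ratio size factors and at least 10 reads per gene, was the count-based alternative. Summed levels are reads per 1000000 reads in genes (RPM) and were not tested.

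Named were the B cell genes, the constant segments with at least 3 reads, the 5 variable segments with the highest mean FPKM of the heavy chain and of each light chain locus, any member past the threshold, and from the other lists (140 symbols, 130 matched) the genes past the threshold for 36 against 6 months or else the 2 with the smallest p. Sums, shares and figures used matplotlib 3.10.9, scipy 1.17.1, pandas 2.3.3 and numpy 2.4.6 under Python 3.11.15.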

Additional observations from a re-analysis of the deposited data

How the results depend on the processing

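igl3v3 was called for 36 against 6 months in all 21 alternatives that tested it (log2 difference 3.25 to 6.79, adjusted p 0.00119 to 0.0123), and for 36 against 24 months in 20 of 21. The exception was a pseudocount of 0.1, with 0 calls for that comparison (adjusted p = 0.0544). Apart from the fit without a filter and limma voom, these alternatives kept the filter that igl3v3 passed only through 36 months (mean of 0.454 FPKM over the 9 younger libraries). All of them reuse the libraries of 36 months, so their number adds no independent support. With no filter the count of called genes was 2 in the F test, the trend, 36 against 6 and 36 against 24 months, through ighv4-1. At a mean FPKM of at least 5 it was 0 in each, because 0 of the 85 genes were tested. Leaving out a library gave 1 to 1 calls in the F test, 1 to 2 for the trend, 1 to 2 for 36 against 6 months, 1 to 1 for 36 against 24 months, and 0 to 0 for 12 against 6 and for 24 against 12 months. The count of 2 came without replicate 1 of 6 months, where ighv9-1 reached 3.34 (adjusted p = 0.0312), and it was also 2 for the trend and for 36 against 6 months without both replicate 1 of 6 months and replicate 3 of 12 months. With the replicate number as a block, 1 gene was called for 36 against 6 months, and the block changed no call in the other comparisons. Replicate numbers did not pair libraries: deviations from the age means correlated at -0.154 to 0.106 in the 18 pairs that share a number.

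Of the 7 uncalled log2 differences for 36 against 6 months, 4 changed sign when a library was left out: BX571825.5 ran from -0.98 to 0.03, cd79a from -0.52 to 0.10 (0.00923 without replicate 1 of 6 months, and the same without both libraries), cd79b from -0.13 to 0.20 (-0.0237 without replicate 1 of 36 months), and si:dkeyp-13d12.23 from -0.14 to 0.20. ighv9-1, igl1c3 and ighmbp2 kept their sign. The 23 segments with no same-strand unnamed locus do not include igl3v3 and ighv9-1. Their mean summed level was 4.11, 5.14, 2.11 and 2.6 RPM at 6, 12, 24 and 36 months, in place of 8.38, 10.6, 3.93 and 14.9. On these means 36 months was no longer the highest age. Without the 2 libraries that stood apart, these segments were at 2.63 RPM at 6 months and 2.25 at 12 months, near the 2.11 and 2.6 of the later ages. Of these 23, 16 belong to the chromosome 19 pseudogene cluster, so this set mostly describes that cluster. Over the 53 segments not under pseudogene biotypes, which include igl3v3 and ighv9-1, the mean was 4.94, 5.97, 2.06 and 13 RPM, highest at 36 months. Replicate 1 of 6 months (11.6 RPM) and replicate 3 of 12 months (11.4) overlapped the libraries of 36 months (9.63 to 18.6). Without those 2 libraries the means of 6 and 12 months were 1.62 and 3.25 RPM. With only igl3v3 and ighv9-1 left out of the 78, a choice made after their values were seen, the mean was 5.82 RPM at 36 months. Other alternatives kept the counts: equal reads per library, unnamed loci left out, eBayes without trend, only the ages compared, and limma voom. At this depth most segments lie at 0 to 3 reads in a library, which limits what differences between ages can be detected.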

Other observations

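The recombination gene rag1 was singled out after its values were seen. It had 379 reads (7.6 FPKM) in replicate 2 of 24 months and 0 to 21 reads in the other 11 libraries, while its partner rag2 had 10 reads there and 0 to 12 elsewhere. irf4b, a paralogue of a factor of activated B and plasma cells in mammals, was also singled out after its values were seen. It had 29, 53 and 14 reads at 36 months (1.24, 1.86 and 0.507 FPKM) and 9 to 25 reads in the younger libraries. Its level was too low for the main test. In the same list, xbp1 stood at 190, 248 and 221 FPKM at 6 months and 254, 166 and 201 at 36 months. Of the 7 genes of that list tested for 36 against 6 months, 0 were called in limma.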
